A study of Rattus norvegicus with 4 samples.

Results

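The genes described here present peptides to T cells in rat pancreas. They are 10 genes of the major histocompatibility complex (MHC) class I and class II pathways, RT1-CE5, B2m, RT1-Ba, RT1-Bb, RT1-Da, RT1-Db1, RT1-DMa, RT1-DMb, Cd74 and Ciita. They were chosen by gene symbol, and 13 of the 30367 gene probes on the arrays carry one of these symbols. RT1-CE5, RT1-Bb and RT1-Db1 have 2 probes each, which were kept apart, and the other genes have 1. Weanling male Sprague-Dawley rats ate an iron-deficient diet (FeD, 5 ppm iron), an iron-adequate diet (FeA, 35 ppm) or an iron-overloaded diet (FeO, 20275 ppm) for 3 weeks. Sprague-Dawley rats are an outbred stock, and pancreatic RNA of 6 rats per diet was combined into 1 pool. Each diet pool shared 2 two-colour arrays with the FeA pool, carrying Cy5 on array 1 and Cy3 on array 2. These 2 arrays hold identical RNA and count as 1 replicate, so the spread between them is technical and no test of a diet was possible.

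Class I molecules stand on nearly all nucleated cells and display peptides from inside the cell to CD8 T cells. Each is a heavy chain, here RT1-CE5, paired with the light chain B2m. Class II molecules stand mainly on dendritic cells, B cells and macrophages and display peptides from taken-up material to CD4 T cells. Each is an alpha and a beta chain (RT1-Ba with RT1-Bb, RT1-Da with RT1-Db1) that is assembled on the invariant chain Cd74, and RT1-DMa with RT1-DMb exchanges the remnant of Cd74 for a peptide. Ciita is the transactivator that switches class II genes on. It binds no DNA itself and acts through factors that sit on the X and Y boxes, short elements just before the gene start. In a whole pancreas class II transcripts are carried mostly by immune cells. In bulk RNA of this kind, fewer cells of a type and less RNA per cell cannot be told apart.

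RefSeq promoter sequences of assembly GRCr8 matched 8 of the 10 genes, all but RT1-DMb and Ciita. Each holds 250 bases before and 50 bases after the annotated start. Below are the bases from -130 to -31 of 6 genes, 5′ to 3′ on the gene's own strand, shown because the class II chains share a Y box there. Capitals mark the Y box letters CTGATTGG, which read CCAATCAG where the match lies on the other strand, or, in RT1-DMa, the shorter core ATTGG. RT1-Da lies at chr20:4515285-4515384 on the plus strand, RT1-Db1 at chr20:4560193-4560292 on the minus strand, RT1-Ba at chr20:4576927-4577026 on the plus strand and RT1-Bb at chr20:4604149-4604248 on the minus strand. RT1-DMa lies at chr20:4712366-4712465 and RT1-CE5 at chr20:3484121-3484220, both on the minus strand.
RT1-Da: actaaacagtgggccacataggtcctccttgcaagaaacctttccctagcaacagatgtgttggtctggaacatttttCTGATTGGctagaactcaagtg
RT1-Db1: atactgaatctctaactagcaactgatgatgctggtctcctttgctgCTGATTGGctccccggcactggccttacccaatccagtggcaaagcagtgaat
RT1-Ba: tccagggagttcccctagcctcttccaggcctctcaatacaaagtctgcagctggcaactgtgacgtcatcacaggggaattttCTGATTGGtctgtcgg
RT1-Bb: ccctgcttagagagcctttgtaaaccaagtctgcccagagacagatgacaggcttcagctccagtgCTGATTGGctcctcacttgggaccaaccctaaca
RT1-DMa: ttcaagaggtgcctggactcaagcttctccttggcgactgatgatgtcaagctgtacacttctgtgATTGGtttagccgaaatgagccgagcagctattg
RT1-CE5: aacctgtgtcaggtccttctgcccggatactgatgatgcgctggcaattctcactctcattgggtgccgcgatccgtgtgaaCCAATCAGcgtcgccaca

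On either strand, CTGATTGG was found in 5 of the 8 promoters (RT1-Ba, RT1-Bb, RT1-CE5, RT1-Da and RT1-Db1), and in 3.5% of all 33469 promoters of the same length. In the 4 class II chains it began between positions -83 and -46 from the start. The core ATTGG, which CTGATTGG contains, occurred in all 8 promoters and in 37.5% of all promoters. The X box core TAGCAAC was found in RT1-Da, RT1-Db1 and Cd74, against 3.58% of all promoters, and in both RT1-D genes it lay upstream of the Y box. TGACGTCA, the cyclic AMP response element, was found in RT1-Ba alone (1.83% of all promoters). Of the interferon motifs, the interferon-stimulated response element was found in B2m alone (3.92%) and the gamma-activated site, TTCNNNGAA, in none of the 8 (8.87%). A match is a description of the letters in a reference genome and is not a measured binding site.

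**Figure D1:**
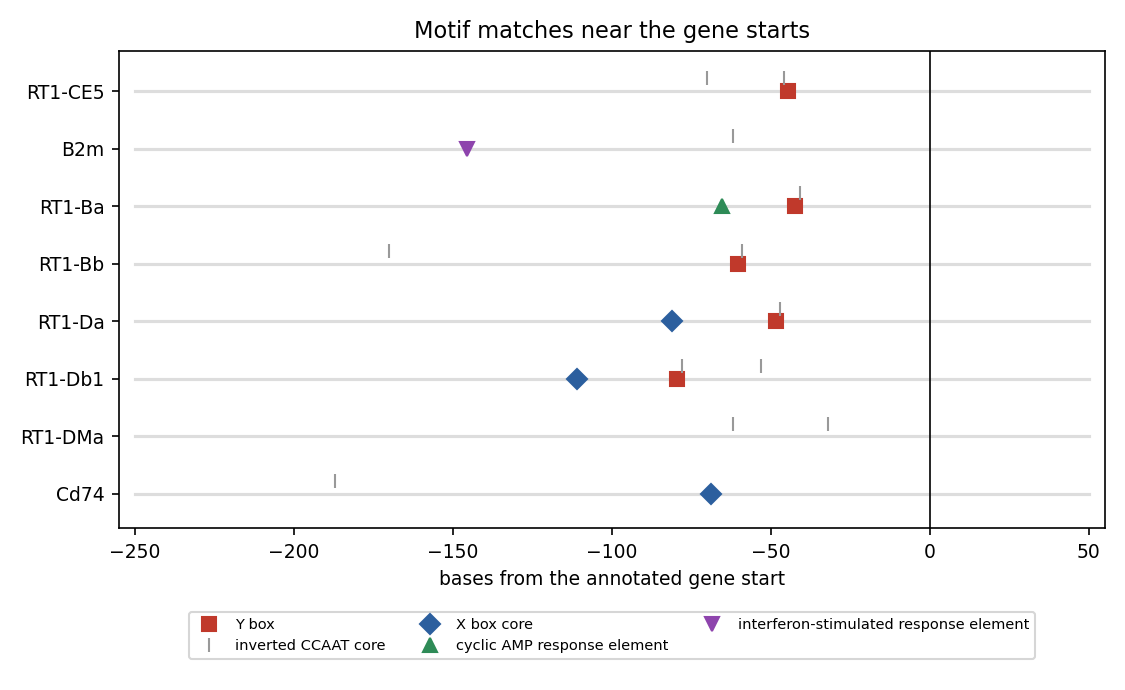
Matches of 5 motifs in the promoters of 8 antigen presentation genes, by their distance in bases from the annotated gene start (0 on the horizontal axis), with 1 line per gene. Red squares are the Y box, which 5 of the 8 genes hold, and blue diamonds are the X box core, which 3 hold. Grey ticks are the shorter core within and outside the Y box.

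On the 4 arrays, which come from 1 slide and 1 scan, 61.9% to 71.5% of the gene spots per channel were well above background. Log2 ratios of the diet pool over the FeA pool are given for array 1 and then array 2, with the sign of array 2 turned for the dye swap. A mean is followed by ± the distance of each array from it. A probe was counted where it was well above background on both arrays in at least 1 diet, and 12 of the 13 member probes passed in each comparison. The probe that did not pass is the only one of RT1-Ba, the alpha chain of RT1-B. It was not well above background in any of the 8 channels, with median spot signals of 62 to 114, so no ratio is given for it. Probes past the size criterion have a mean log2 ratio of at least 1 in size, a 2-fold difference, with the same sign on both arrays.

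In FeD pancreas most antigen presentation transcripts were above FeA. Of the 12 probes, 9 were higher on both arrays, 2 were lower on both and 1 changed sign, whereas 24.9% of all gene probes were higher on both arrays and 21.5% lower. At a log2 ratio of 0.5 or more in size, 6 probes were higher and 1 was lower, against 2.74% of all probes in either direction. Past the size criterion only 1 probe was left, for RT1-Bb, against 0.365% of all probes in either direction. The median of the 12 probes was 0.50, beside 0.01 over all gene probes, and the class II median was 0.57. Array 1 alone placed 2 member probes past the criterion, RT1-Da higher and the other RT1-Bb probe lower, and array 2 alone placed 3, for RT1-Bb, Cd74 and RT1-DMa. The higher probes include the dim RT1-CE5 probe, for which FeA was well above background on neither FeD array. With both pools required to be well above background, 8 of 11 probes were higher, 5 of them at 0.5 or more, and the median was 0.44.

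In FeO pancreas the same transcripts spread to both sides of FeA. Of the 12 probes, 1 was higher and 6 were lower on both arrays, against 27.8% and 24.1% of all gene probes, and 5 had opposite signs on the swapped arrays. The 6 lower probes are all of class II genes (RT1-Bb, RT1-Da, RT1-Db1, Cd74 and Ciita), and the 1 higher probe is the dim one of RT1-CE5. For that RT1-CE5 probe 1 of 2 FeA spots stood well above background, and for Ciita 1 of 2 FeO spots did. With both pools required on both arrays, 0 of 10 were higher and 5 were lower. At 0.5 or more in size, 0 were higher and 4 were lower, against 5.41% of all probes in either direction. Past the size criterion, 0 were higher and 2 were lower, against 1.11%. At a log2 ratio of 2, the size the study's methods use, 0 members passed in either comparison, against 0.114% of all probes in FeD and 0.191% in FeO. With the scanner software's processed signals, the dim RT1-CE5 probe would pass that size in FeD, at 3.32. The study itself, by its own processing, lists RT1-CE5 among its most up-regulated genes in FeD. The 2 lower probes past the size criterion are the RT1-Bb and RT1-Db1 probes that stand apart from the other probe of their gene. The median of all 12 was -0.18, and it was -0.40 on array 1 and 0.03 on array 2. The class II median was -0.36, with -0.53 on array 1 and -0.33 on array 2, and the class I median was 0.05.

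**Figure D2:**
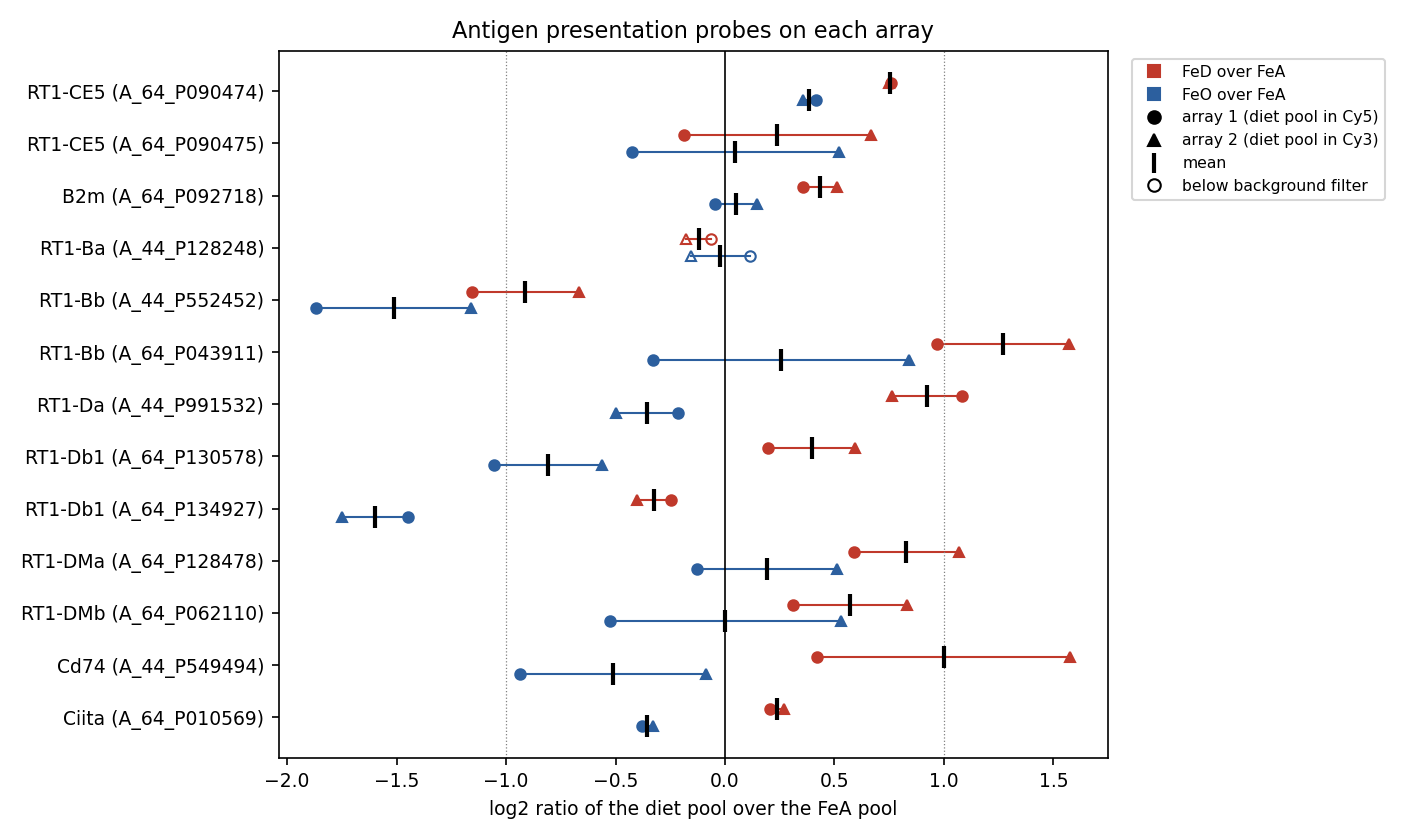
Log2 ratio over the FeA pool (horizontal axis) of each of the 13 probes (rows) in FeD (red) and FeO (blue), with circles for array 1, triangles for array 2 and black bars for their mean. Dotted lines mark the size criterion. In every filled row the FeO mean lies left of the FeD mean, and open symbols mark the RT1-Ba probe, which was not well above background.

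Among class I genes, the light chain B2m was slightly above FeA in FeD and near it in FeO. Its median spot signal in Cy5 was 7268 in FeD, 4044.5 and 3425.5 in FeA and 4994.5 in FeO, and in Cy3 it was 2802.5 in FeD, 2742 and 2366.5 in FeA and 2336 in FeO. These signals are not normalized, and FeA has 2 values per dye because that pool is on all 4 arrays. After normalization the log2 ratio was 0.36 and 0.51 in FeD (mean 0.44 ± 0.08) and -0.04 and 0.15 in FeO (mean 0.05 ± 0.10). The FeD arrays agree in sign, and the FeO arrays do not.

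RT1-CE5, a class I heavy chain, was read by a dim and a bright probe. The dim probe A_64_P090474 had log2 ratios of 0.76 and 0.75 in FeD (mean 0.75) and 0.42 and 0.35 in FeO (mean 0.39), so both diets were above FeA. On neither FeD array did FeA stand well above background, which leaves a bound. With the background correction used here, FeD was at least 1.64-fold higher. This value turns on how background is treated. Without background subtraction the mean log2 ratio was 0.62 in FeD and 0.27 in FeO, so the bound belongs to this correction alone. The scanner software's own processed signals gave a mean log2 ratio of 3.32 in FeD and 1.07 in FeO for this probe. Its uncorrected signals were 219.5 in FeD, 119 and 121 in FeA and 163 in FeO in Cy5, and 104.5, 73.5, 81 and 96 in the same order in Cy3. The bright probe A_64_P090475 gave -0.19 and 0.66 in FeD and -0.43 and 0.52 in FeO, with opposite signs on the swapped arrays. Its means, 0.24 ± 0.43 and 0.05 ± 0.47, are smaller than the distance of the arrays from them. Class I genes form a family of near-identical copies, so which copies each probe reads is uncertain.

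Cd74, the invariant chain on which class II molecules are assembled, was higher in FeD and lower in FeO. In Cy5 its median spot signal was 7683 in FeD, 3036 and 2992 in FeA and 2605 in FeO. In Cy3 it was 4360 in FeD, 2765.5 and 2332.5 in FeA and 1725 in FeO. Both dyes thus gave the order FeD, FeA, FeO, and the diets did not overlap within a dye. The log2 ratio was 0.42 and 1.58 in FeD (mean 1.00 ± 0.58) and -0.93 and -0.09 in FeO (mean -0.51 ± 0.42). The FeD mean lies just under the criterion (0.998 before rounding), and the 2 arrays lie far apart in both comparisons.

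RT1-Da, the alpha chain of RT1-D, had the same pattern with less spread. Its Cy5 signal was 2598.5 in FeD, 1103 and 922 in FeA and 922 in FeO, and its Cy3 signal was 928, 611.5, 524 and 411.5 in that order. FeD was the brightest pool in both dyes. The log2 ratio was 1.08 and 0.76 in FeD (mean 0.92 ± 0.16, a 1.89-fold difference) and -0.21 and -0.50 in FeO (mean -0.36 ± 0.14).

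RT1-Db1, the beta chain that pairs with RT1-Da, was lower in FeO by both of its probes, and the probes differ in sign in FeD. Probe A_64_P130578 gave 0.20 and 0.60 in FeD (mean 0.40 ± 0.20) and -1.06 and -0.56 in FeO (mean -0.81 ± 0.25). Probe A_64_P134927 gave -0.25 and -0.40 in FeD (mean -0.32 ± 0.08) and -1.45 and -1.75 in FeO (mean -1.60 ± 0.15), so FeA was 3.03-fold above FeO. The uncorrected signals of the latter probe were 3091 in FeD, 2833.5 and 2582 in FeA and 1206.5 in FeO in Cy5, and 1070, 1802, 1562 and 479 in the same order in Cy3. FeO was the dimmest pool in both dyes, whereas FeD was above FeA in Cy5 and below it in Cy3.

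RT1-Bb, the beta chain of RT1-B, gave opposite answers by its 2 probes. Probe A_64_P043911 was higher in FeD, with log2 ratios of 0.97 and 1.57 (mean 1.27 ± 0.30, a 2.41-fold difference), and in FeO it gave -0.33 and 0.84 (mean 0.26 ± 0.59). Its Cy5 signals were 4485 in FeD, 1623 and 1028 in FeA and 1599 in FeO, and its Cy3 signals were 2351, 1131, 968 and 1119. Probe A_44_P552452 was lower in both diets, with -1.16 and -0.67 in FeD (mean -0.91 ± 0.24) and -1.87 and -1.16 in FeO (mean -1.51 ± 0.35). Its Cy5 signals were 1660 in FeD, 2418 and 1935 in FeA and 946 in FeO, and its Cy3 signals were 770, 1803, 1635 and 537. Both probes carry the same accession and both were well above background in every channel. RT1 genes vary between rats of an outbred stock, as background, and which alleles or copies each probe reads is uncertain and was not tested. The direction of RT1-Bb against FeA is therefore not settled.

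The DM chains, which load peptide onto class II, were above FeA in FeD on both arrays and mixed in FeO. RT1-DMa gave 0.59 and 1.07 in FeD (mean 0.83 ± 0.24, a 1.78-fold difference) and -0.13 and 0.51 in FeO (mean 0.19 ± 0.32). RT1-DMb gave 0.31 and 0.83 in FeD (mean 0.57 ± 0.26) and -0.53 and 0.53 in FeO (mean 0.00 ± 0.53). The FeO mean of RT1-DMb changed sign under some of the settings tried and has no direction.

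Ciita, the class II transactivator, was a dim probe with small, closely repeated ratios. In Cy5 its signal was 217 in FeD, 164 and 134 in FeA and 131 in FeO, and in Cy3 it was 111.5, 103, 92.5 and 76.5. The log2 ratio was 0.21 and 0.27 in FeD (mean 0.24 ± 0.03) and -0.38 and -0.33 in FeO (mean -0.36 ± 0.03), with FeO well above background on 1 of 2 arrays. The processed signals of the scanner software gave -1.37 in FeO and 0.42 in FeD. Cd74, RT1-Da, Ciita and 1 probe of RT1-Db1 were thus higher on both FeD arrays and lower on both FeO arrays, 4 of 12 probes against 4.59% of all probes that passed in both comparisons.

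The probes of a gene disagreed more here than for most genes. Over the genes with 2 probes that passed, the difference between their mean log2 ratios had a median of 0.10 in FeD and 0.13 in FeO. RT1-Bb differed by 2.18 in FeD, the largest difference of 1467 such genes, and by 1.77 in FeO, the fourth largest of 1539. A difference of 1 or more was found for 5 genes in FeD (0.341%) and 9 in FeO (0.585%). RT1-Db1 differed by 0.72 and 0.79, and RT1-CE5 by 0.51 and 0.34. The FeA pool is common to both comparisons, and it drops out when FeO is set against FeD.

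**Figure D3:**
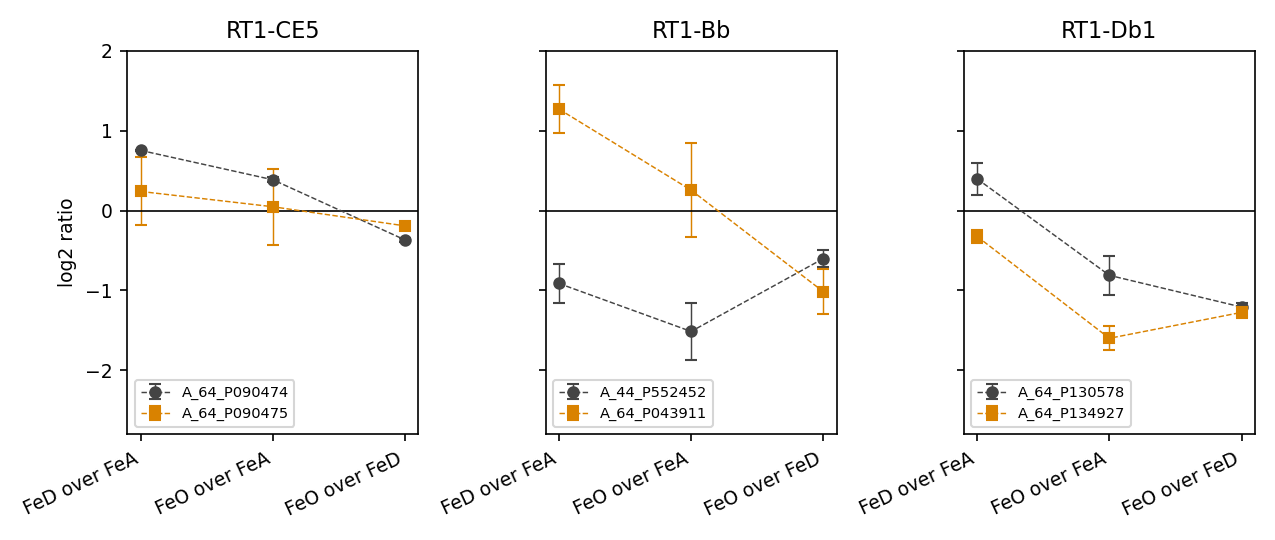
Mean log2 ratio (vertical axis) of the 2 probes of RT1-CE5, RT1-Bb and RT1-Db1 in FeD over FeA, FeO over FeA and FeO over FeD, with bars that reach from one array's value to the other's. The RT1-Bb probes lie on opposite sides of 0 over FeA, and over FeD both lie below 0, at -0.60 and -1.01.

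FeO was set against FeD by subtracting the FeD ratio from the FeO ratio on arrays of the same dye orientation, a comparison added after the data were seen. Every one of the 12 probes that passed was lower in FeO than in FeD in both dye orientations, whereas 32.2% of all gene probes were. By a mean log2 difference of 1 or more, 5 probes were lower (0.529% of all probes), and by 0.5 or more, 9 were lower (2.21%). The median of the 12 was -0.62, that of the 9 class II probes -1.01 and that of the 3 class I probes -0.37, beside 0.00 over all gene probes. Ciita passed here through FeD alone, since FeO was well above background on 1 of 2 arrays. With both diet pools required, 5 probes were again lower by 1 or more, and the median of the members was -0.64. The class I median is the dim RT1-CE5 probe, for which the processed signals gave -2.25.

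Cd74 had the largest difference of the members, -1.35 with the diet pools in Cy5 and -1.66 in Cy3 (mean -1.51 ± 0.15), so FeD was 2.85-fold above FeO. RT1-Da gave -1.30 and -1.26 (mean -1.28 ± 0.02, 2.42-fold). The RT1-Db1 probes, which differed in sign in FeD, gave -1.21 ± 0.05 and -1.27 ± 0.07 and lay 0.07 apart. The RT1-Bb probes gave -1.01 ± 0.28 and -0.60 ± 0.11, which brought them 0.41 apart and to the same sign. That is still above the median difference of 0.14 over the 1536 genes with 2 probes that passed, among which RT1-Bb ranked 96. Why the RT1-Bb probes differ was not tested. The other members followed at -0.64 for RT1-DMa, -0.59 for Ciita, -0.57 for RT1-DMb, -0.38 for B2m and -0.37 and -0.19 for the RT1-CE5 probes.

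The arrays of one dye orientation resembled each other. Across probes, which are not independent, the 2 orientations of the FeO less FeD difference correlated with a Pearson r of 0.68, against 0.18 between the swapped arrays of FeD and 0.41 of FeO. The gap between the swapped arrays had the same sign in both comparisons for all 12 member probes, as for 79.0% of all gene probes. Taken without its sign, the median gap over all gene probes was 0.22 in FeD, 0.23 in FeO and 0.14 in FeO less FeD.

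**Figure D4:**
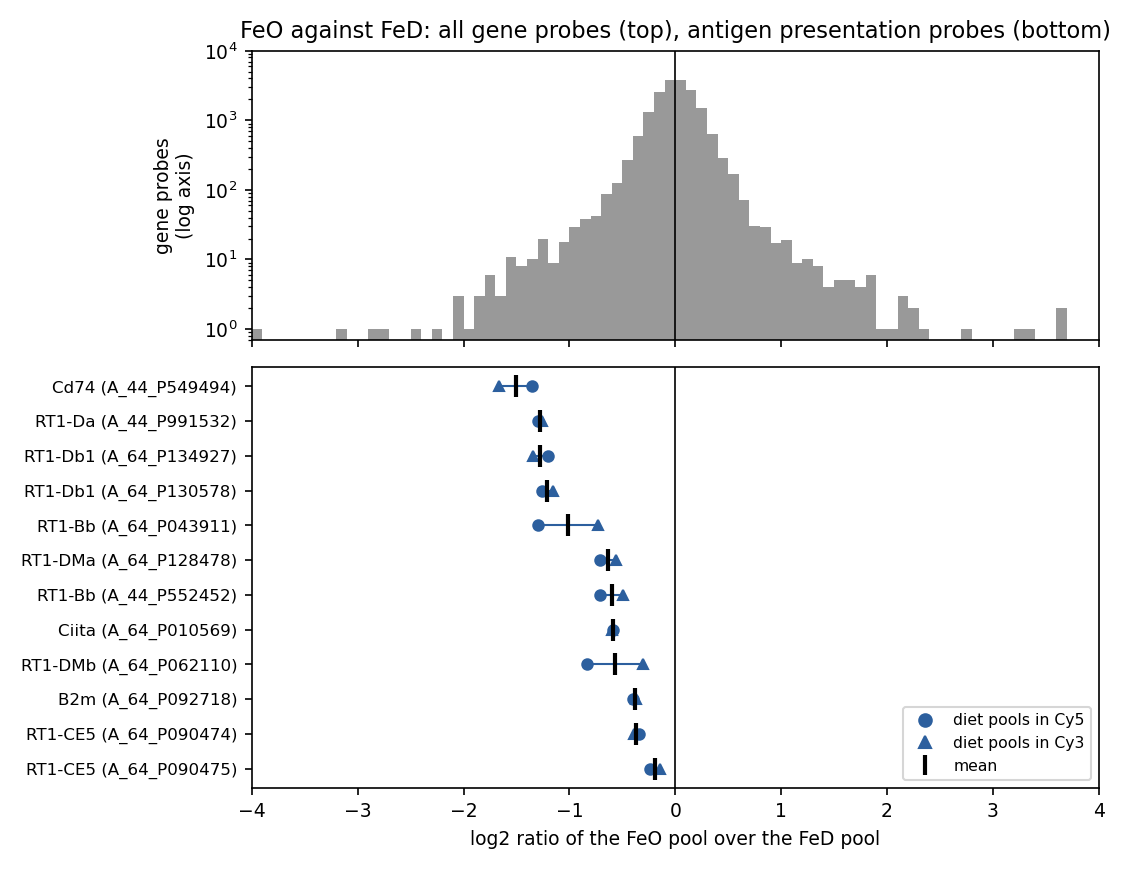
Log2 ratio of the FeO pool over the FeD pool (horizontal axis), as a histogram of all gene probes on a log axis (top) and for the 12 member probes that passed (bottom, circles for the arrays with the diet pools in Cy5, triangles in Cy3, bars for the mean). Every member symbol lies left of 0, and the means run from -0.19 for an RT1-CE5 probe to -1.51 for Cd74.

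The methods' t-test and limma's moderated test set pool against pool with only the array spread as error, so they do not reach the variation between rats. By the methods' t-test, 6 member probes in FeD and 4 in FeO were below its threshold, against 6.23% and 7.97% of all probes, and 0 after Benjamini-Hochberg adjustment over all probes. By limma, 10 and 6 were below the threshold without adjustment (8.08% and 11.9% of all probes). After adjustment 2 and 2 were left, against 0.531% and 1.01%. In FeD these were RT1-Da (limma adjusted p = 0.0453) and RT1-Bb by A_64_P043911 (0.0310), and in FeO RT1-Bb by A_44_P552452 (0.0471) and RT1-Db1 by A_64_P134927 (0.0162).

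Of the rest of the pathway, 0 probes of the 7 lists were past the size criterion in either comparison, out of 71 that passed in FeD and 70 in FeO, against 0.365% and 1.11% of all gene probes. In FeD the count was 2 with a normexp offset of 0, 4 with the processed signals and 1 on array 2 alone, and in FeO it was 1 on array 2 alone. At 0.5 or more in size, 6 were higher in FeD, against 1.76% of all gene probes, and 1 in FeO, against 3.37%. On both arrays, 24.9% of all gene probes were higher and 21.5% lower in FeD, and 27.8% and 24.1% in FeO. The counts of each list below are read beside these shares. Among 34 probes of other class I genes that passed in FeD, 11 were higher and 6 lower on both arrays, with a median of 0.04. RT1-A2, a classical class I heavy chain, gave 0.59 and 1.35 in FeD (mean 0.97) and 0.19 and 0.97 in FeO (mean 0.58). RT1-CE10 had means of 0.66 in FeD and 0.33 in FeO. RT1-T24-1 was at 0.55 in FeD by probe A_64_P048408 and at -0.31 by A_64_P105540, so its probes differ in sign. In FeO, 6 class I probes were higher and 5 lower of 33, with a median of 0.01, and RT1-A1 had means of -0.40 by A_64_P032913 and -0.17 by A_64_P139202, the latter with opposite signs on the swapped arrays.

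Of the genes that cut and carry peptides for class I, 7 of 12 probes were higher and 1 lower on both FeD arrays, with a median of 0.08. Psmb8, a subunit of the immunoproteasome, gave 0.72 and 0.99 (mean 0.85), its partner subunit Psmb9 had a mean of 0.54 and the peptide transporter subunit Tap2 of 0.42. In FeO 1 of 11 was higher and 4 were lower, with Psme2, a proteasome activator subunit, at -0.26 the trimming peptidase Erap1 at -0.23 and Tap2 at 0.18. Psmb8 gave -0.05 and -0.02 in FeO, near FeA, and its log2 difference between FeO and FeD was -0.89.

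Of the other class II chains, 2 probes passed in FeD, and RT1-DOa, a chain of the DM inhibitor, had a mean of 0.26. FeA was well above background on neither array for it, and FeD was at least 1.20-fold higher. In FeO 1 passed, RT1-DOb at -0.03. The factors that bind X and Y boxes lay near 0 in both diets. Among their 5 probes in FeD and 6 in FeO, 0 were higher and 2 were lower on both arrays. The lowest were Nfyc at -0.13 in FeD, Nfyb at -0.18 in FeO and Rfxap at -0.08 in FeD and -0.11 in FeO.

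Endosomal proteases were mixed, with 2 higher and 2 lower of 6 in FeD and 2 higher and 1 lower of 6 in FeO. Ctss, the protease that trims the invariant chain, was higher in both diets, at 0.58 in FeD and 0.46 in FeO, whereas Lgmn was at -0.29 in FeD and Ctsl1 at -0.27 in FeO. The thiol reductase Ifi30 was at 0.21 in FeD and the protease Ctsh at 0.27 in FeO. In the interferon gamma pathway, which induces Ciita, 3 of 8 probes were higher and 0 lower in FeD. Ifngr2 had a mean of 0.29 and Irf1 of 0.20 by A_44_P306602. The other Irf1 probe, A_64_P128438, had means of 0.25 in FeD and 0.02 in FeO, with opposite signs on the swapped arrays in both. In FeO the 8 probes lay between -0.13 and 0.07, with Ifngr2 at -0.08, Irf1 by A_44_P306602 at -0.07 and the kinase Jak1 at 0.05. Of the costimulatory genes, Cd40, a receptor on B cells and dendritic cells, was at 0.39 in FeD and -0.33 in FeO by A_42_P666951 and at 0.17 and -0.15 by A_64_P139173, whose FeD arrays had opposite signs, and the adhesion molecule Icam1 at 0.45 and 0.47.

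General leukocyte, lymph node, B cell and T cell lists had medians above FeA in FeD and below it in FeO, as the class II genes did, and their part in these results was not tested. Of 4 probes of general leukocyte genes, 4 were higher on both FeD arrays and 4 lower on both FeO arrays, with medians of 0.68 and -0.61. The normalized intensities summed over a list's probes, given here as the range over a pool's channels, were 6089 to 6912 in FeA, 10173 to 11491 in FeD and 3806 to 4362 in FeO, without overlap. Coro1a, an actin-binding protein of leukocytes, gave 0.91 and 0.98 in FeD and -1.10 and -1.14 in FeO. The other end of the list was probe A_64_P069799 of Ptprc, the leukocyte common antigen, with means of 0.49 and -0.11, and its other probe, A_42_P483564, had 0.82 and -0.74.

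Lymph node genes had medians of 0.72 in FeD and -0.81 in FeO. All 6 probes were higher on both FeD arrays, and 4 were lower and 2 higher in FeO. Their summed level was 5673 to 5931 in FeA, 10534 to 10613 in FeD and 2982 to 3198 in FeO. Glycam1, a mucin of lymph node venules, had means of 1.15 and -2.75, the addressin Madcam1 was lowest in FeD at 0.45, and the lymphoid chemokine Cxcl13 was higher in FeO, at 0.98. B cell genes had medians of 0.42 and -0.52 and summed levels of 1545 to 1878 in FeA, 2582 to 2660 in FeD and 1115 to 1309 in FeO. Of these, 6 of 6 probes were higher in FeD, and in FeO 2 of 4 were lower and 1 was higher. Cd22 passed in FeD through the FeD pool alone. FeA was well above background on neither FeD array for it, and FeD was at least 1.31-fold higher. Ms4a1 was well above background in only 3 of the 8 channels. Cd22 and Ms4a1 did not pass in FeO, so the 2 medians rest on unlike probes. Over all 6 probes without the filter, the FeO median was -0.12. Cd79b, a chain of the B cell receptor, gave 0.96 in FeD and -0.97 in FeO, and the transcription factor Pax5 0.20 and 0.15. T cell genes had medians of 0.43 and -0.40, with 7 of 8 probes higher in FeD and 5 of 7 lower in FeO, and summed levels of 2078 to 2363, 3001 to 3285 and 1520 to 1700 in FeA, FeD and FeO. The probes higher in FeD include Cd2, which was well above background in only 3 of the 8 channels and did not pass in FeO. Over all 8 T cell probes without the filter, the FeO median was -0.33. Cd3g, a chain of the T cell receptor complex, was at 0.88 and -1.19, and Cd4 at 0.12 and 0.09.

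Of the professional antigen presenting cells other than B cells, dendritic cell genes were less marked and macrophage genes had medians above FeA in both diets. Only 3 dendritic cell probes of 10 passed in FeD and 4 in FeO, with medians of 0.24 and -0.09, and Xcr1 was not well above background in any channel. Summed levels overlapped, at 886 to 1115 in FeA, 945 to 1243 in FeD and 983 to 1020 in FeO. Ccr7 was highest in FeD at 0.24, and in FeO Zbtb46 was at -0.35. Flt3 by A_64_P026374 was lowest in FeD, at 0.00, and highest in FeO, at 0.33. Macrophage genes had medians of 0.21 and 0.27, with 4 of 7 probes higher in FeD and 5 of 7 in FeO, and Mrc1 was not well above background in any channel. Their summed levels were 2166 to 2725 in FeA, 2346 to 2744 in FeD and 2833 to 2873 in FeO, so FeO lay above the FeA range. In FeO, Cd163, the haemoglobin scavenger receptor, was at 0.95 and Cd14 at 0.94. The scavenger receptor Marco was at -0.93, the 1 probe lower on both arrays, so macrophage genes did not move together. In FeD, Marco was lowest at -0.09 and the growth factor receptor Csf1r highest at 0.33. Endothelial genes were higher on both arrays in 6 of 6 probes in each diet, with medians of 0.35 and 0.46 and summed levels of 2163 to 2774, 3201 to 3628 and 3154 to 3181. Vwf was highest in both, at 0.64 and 0.76 by different probes, and Pecam1 was lowest, at 0.14 and 0.19.

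The pools also differed in marker transcripts of other tissues. Intestinal epithelium genes had medians of -1.86 in FeD and -2.26 in FeO, with 9 of 10 probes lower on both arrays in each diet. Their summed levels were 7929 to 8304 in FeA, 2124 to 2320 in FeD and 1586 to 1741 in FeO. FeA was well above background on both arrays for Fabp1, a fatty acid binding protein, FeD on 1 of 2 and FeO on neither, so FeO was at least 21.8-fold lower. In all, FeD was above background on neither array for 2 of the 10 probes and FeO for 5, which leaves only bounds for these. The ratios nearest 0 were those of Cdx2 in FeD, at least 1.14-fold lower, and of Vil1 in FeO, at -0.13. On the arrays, the FeA pool thus carried more of these transcripts than either diet pool. By qRT-PCR, the study found Fabp1, Fabp2 and Apoa1 below its detection limit in pancreas. Adipocyte genes had medians of -0.07 in FeD and 1.99 in FeO, with 3 of 4 probes past the criterion in FeO, summed levels of 6516 to 9206, 6063 to 6956 and 30706 to 31921, and Cfd at 2.30 in FeO. The lowest there was Lep at 0.10, and in FeD Cfd was at -0.40 and Adipoq at 0.21. Pancreas markers were present in every pool. Acinar genes, with summed levels between 1744826 and 2835729 over all pools, had medians of -0.08 and -0.28, and islet genes, with sums of 114904 to 226184, had medians of -0.44 and -0.77. Prss1 and Cpa1 had no value on FeO array 2. The acinar sums on that array leave them out, and the acinar median in FeO rests on 5 of 7 probes. Among acinar genes the lipase Cel was lowest, at -0.31 in FeD and -0.65 in FeO, and Ctrb1, a chymotrypsinogen, highest, at 0.60 and 0.19. Among islet genes Iapp, the amyloid peptide of beta cells, was lowest, at -0.55 and -1.02. Gcg, the glucagon gene of alpha cells, went against its list at 0.21 in FeD and 1.14 in FeO, where it was past the size criterion. What share these tissues had in the class II values was not tested.

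**Figure D5:**
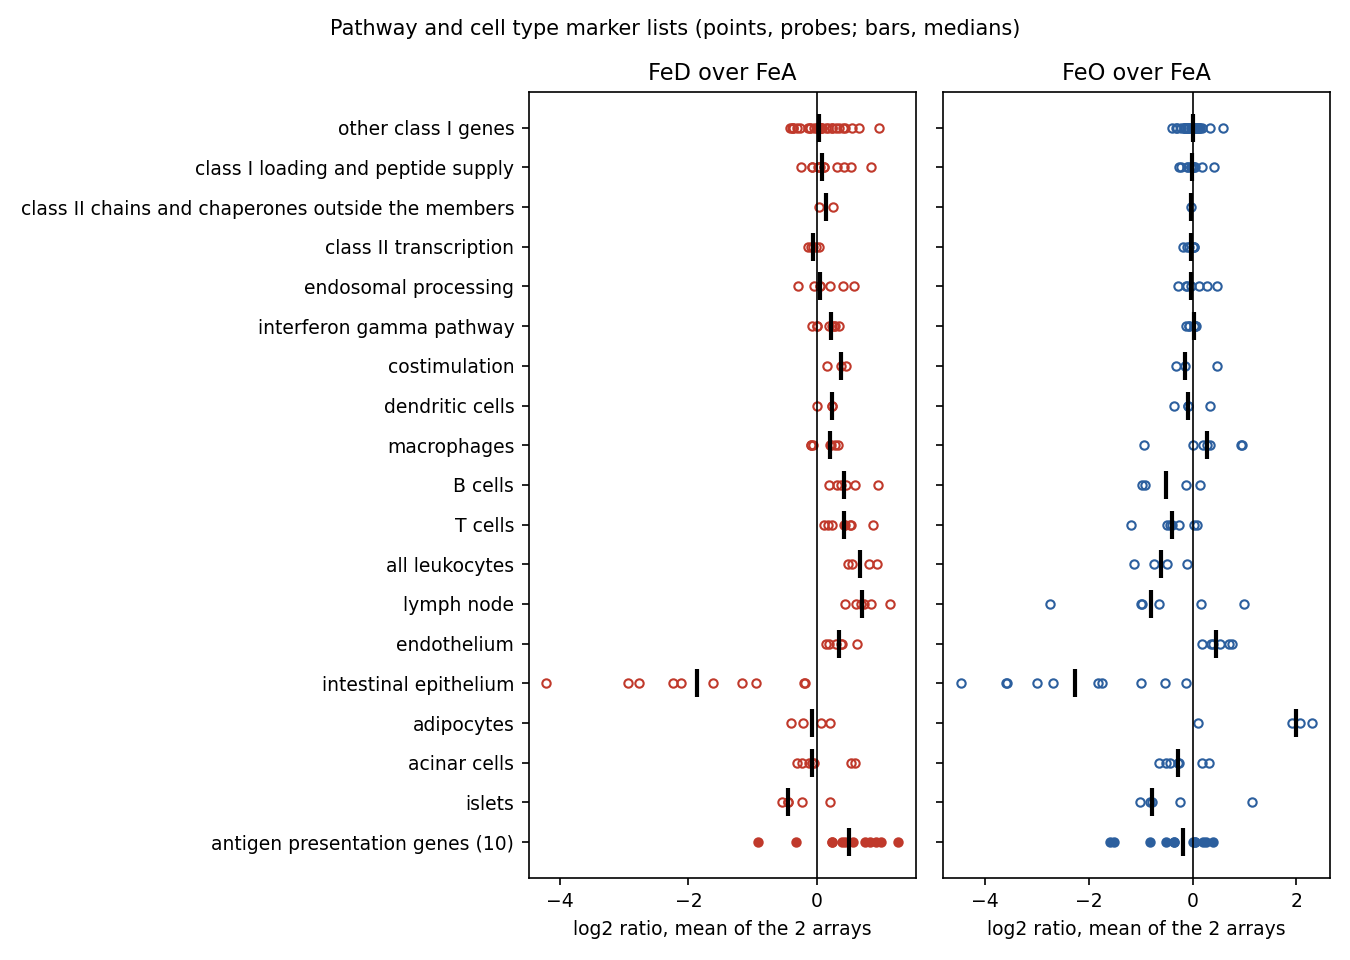
Mean log2 ratio over FeA (horizontal axis) of the probes that passed in the 7 pathway lists and 11 marker lists (rows) in FeD (left) and FeO (right), with the 10 antigen presentation genes in filled symbols at the bottom and black bars for medians. Leukocyte, lymph node, B cell and T cell medians lie right of 0 in FeD and left of 0 in FeO, as the class II median does.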

How the data were processed

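The authors deposited intensity values of each spot and of its local surround, not corrected in any way, and the scanner software named in the headers and processing notes is Agilent Feature Extraction 10.1.1.1. The deposited log10 values are ratios, red over green, of signals that the software had corrected for background and dye. The authors' comparison tables hold log2 fold changes, p-values and q-values, of which only the gene symbols were used.

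Median signals were used, since mean signals are not in these files, and limma 3.58.1 ran under R 4.3.3. The steps were normexp background correction (offset 50), loess within each array and removal of outlier spots. Spots of a probe were averaged, and a probe was well above background where more than 50% of its spots were. A bound sets the brighter pool against the dimmer pool's signal or, where higher, the array's lowest signal well above background. Probe symbols were the authors' for 22919 probes, came by accession from RefSeq for 26 and stayed the array's own for 7422. The authors' table gave 30 symbols as dates, which were set aside. Python 3.11.15 with pandas 2.3.3 and numpy 2.4.6 was used for counts. Steps were tested on simulated data.

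The design has 2 comparisons with 1 pool per diet, no test was the main result, and samples were grouped by the diet of the labelled channel. All members are named, each probe apart. Of each pathway list the 3 genes with the largest ratios of the same sign on both arrays are named, of each marker list the extremes, and the 5 probes nearest to the class II profile. The values of 1 list gene are not reported here. Members and lists were chosen with earlier results of these data known. Alternatives were other background corrections and normalizations, processed signals, outliers kept, other filters and sizes, 1 probe per gene, left-out arrays and tests of the pools. RNA measurements other than the arrays, and protein, were not analysed here.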

Additional observations from a re-analysis of the deposited data

Results flagged for a closer look

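Some probes moved above FeA on both FeD arrays and below FeA on both FeO arrays, or the reverse. The difference between the diets was not tested for any of them. Both comparisons use the same FeA pool. Among the antigen presentation genes, the FeO ratio less the FeD ratio was -1.51 for Cd74, -1.28 for RT1-Da, -1.21 for RT1-Db1 by A_64_P130578 and -0.59 for Ciita. In the pathway lists it was -0.89 for the immunoproteasome subunit Psmb8, with FeO near FeA at a mean of -0.04, and -0.37 for the proteasome activator Psme2. It was -0.37 for the interferon gamma receptor chain Ifngr2 and -0.27 for the transcription factor Irf1 by A_44_P306602, whose FeO means were -0.08 and -0.07. The other Irf1 probe, A_64_P128438, gave -0.22, with opposite signs on the swapped arrays in both comparisons. For Cd40 it was -0.71 by A_42_P666951, whose other probe, A_64_P139173, gave -0.31. In the marker lists it was -1.93 for Cd79b, -2.06 for Cd3g, -0.60 for Ptprc by A_64_P069799, beside -1.56 by its other probe A_42_P483564, -2.07 for Coro1a and -3.90 for Glycam1. The adipocyte gene Cfd went the other way, at 2.70.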

How the results depend on the processing

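All values rest on 1 RNA pool per diet, so no setting says how individual rats vary, and dim probes depend on the background correction. The count of member probes past the size criterion in FeD, 1 as reported, was 4 with a normexp offset of 0 and 5 with the processed signals of the scanner software. It was 0 at a size of 2, 7 at a size of 0.5 and 0 by the methods' t-test after Benjamini-Hochberg adjustment, and it ranged from 2 to 3 with 1 array left out. The count in FeO, 2 as reported, was 4 with the processed signals, 0 at a size of 2, 4 at a size of 0.5 and 0 by the adjusted t-test. It was also 0 without the RT1-Bb and RT1-Db1 probes that stand apart, an alternative chosen after seeing the data that leaves out by construction the 2 probes counted. It ranged from 2 to 3 with 1 array left out. The class II median in FeO, -0.36, was -0.54 with an offset of 0 and ranged from -0.53 to -0.33 with 1 array left out. For FeO less FeD, where every setting was chosen after seeing the data, the count of 5 was 0 at a size of 2 and 9 at a size of 0.5. Its median of -0.62 was -0.92 with an offset of 0 and -1.15 with the processed signals, and ranged from -0.78 to -0.58 by dye orientation. With 1 array left out the median over all members ranged from 0.33 to 0.71 in FeD and from -0.40 to 0.03 in FeO. Of 96 single-probe values per comparison, 8 moved by more than the spread between arrays in FeD and 7 in FeO, and the sign changed in 1 and 9, the latter over 5 probes. All of the former were of the dim RT1-CE5 probe and of Ciita. The cause was not tested. No paired analysis was possible because each diet is 1 pool and the labels give no number shared between separate animals.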

Other observations

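The class II members had a median profile of 0.31 and 0.76 on the FeD arrays and -0.53 and -0.33 on the FeO arrays. Of 15313 probes outside the members and lists that were well above background throughout, the 5 nearest lay at Euclidean distances of 0.10 to 0.16. They were probes of Septin1, Cyb561a3 (Cybasc3 on the array), a transcript listed only as ENSRNOT00000046630, Arhgap15 and Prf1, the perforin of cytotoxic lymphocytes. The Prf1 probe gave 0.32 and 0.79 in FeD and -0.39 and -0.25 in FeO. The members themselves lay between 0.61 and 2.58 from that profile, with a median of 0.98, and 22.5% of all probes compared lay within that median distance.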
